A study of Homo sapiens with 8 samples.

Results

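Closely spaced CTCF sites are places where the protein was recovered at neighbouring positions on the same stretch of chromatin. They were chosen by the position of the summit, the base of highest signal in a peak. A shared CTCF peak was a replicate 1 peak on an autosome or X that overlapped a replicate 2 peak by at least 1 bp, and a closely spaced one had its summit within 2 kb of the summit of another shared peak. This held for 1908 of 33936 shared peaks, a share of 5.62%. The remaining 32028 shared peaks had no neighbour within that distance and are called isolated peaks here.

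The peaks came from chromatin immunoprecipitation and sequencing (ChIP-seq) of the human osteosarcoma line U-2 OS, crosslinked for 6 min with 1% formaldehyde. The 2 CTCF libraries were made with a CTCF antibody from 1 clone, C32, with a FLAG and a Halo tag knocked into the endogenous CTCF gene. A V5-Halo-SP1 knock-in, whose sample titles read parental line, gave 2 libraries of the transcription factor Sp1, each with its own antibody, and 1 with normal rabbit IgG, which serve here only for overlap. The series text names wild-type cells for CTCF, and the sample labels were followed. Nothing in the labels says whether the CTCF replicates came from separate cultures.

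CTCF is a zinc finger protein that binds an asymmetric sequence, so each site has a direction. Cohesin, a ring complex that extrudes loops of chromatin, tends to stop at CTCF, and the anchors of a loop usually carry sites that point towards each other. Arrays of CTCF sites are known at insulators and at the edges of chromatin domains, where sites of several directions can lie side by side.

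The direction of a site was read from a core of 12 bases within 50 bp of the summit, on either strand, with at most 1 mismatch. Facing cores point towards each other and are called convergent, cores that point apart are called divergent, and the rest lie on the same strand. The sequences below show each arrangement in pairs with a core at both sites. They are 2 of the 3 such pairs with the highest mean log2 fold at the weaker site, leaving out the chromosome that carries NRG1 and peaks that overlap IgG, and the pair on chromosome 19 was taken because it is a repeat. Each is given on the plus strand of hg38 with the core in capitals, 5′ to 3′, and a core on the minus strand therefore reads as its reverse complement.
Convergent, chr17:39622112-39622151, left of PPP1R1B: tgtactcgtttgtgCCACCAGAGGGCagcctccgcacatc
Convergent, chr17:39623587-39623626, its neighbour: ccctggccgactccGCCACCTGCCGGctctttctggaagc
Convergent, chr18:48445638-48445677, intergenic: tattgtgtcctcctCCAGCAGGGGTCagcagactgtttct
Convergent, chr18:48446771-48446810, its neighbour: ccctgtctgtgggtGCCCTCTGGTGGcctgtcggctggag
Divergent, chr9:113111534-113111573, FAM225B promoter: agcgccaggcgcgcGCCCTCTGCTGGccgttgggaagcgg
Divergent, chr9:113113000-113113039, FAM225A promoter: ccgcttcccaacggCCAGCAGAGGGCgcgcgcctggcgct
Divergent, chr12:52023851-52023890, NR4A1 intron: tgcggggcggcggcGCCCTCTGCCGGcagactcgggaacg
Divergent, chr12:52025813-52025852, NR4A1 intron: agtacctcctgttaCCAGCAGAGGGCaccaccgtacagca
Same strand, chr6:32413609-32413648, near BTNL2: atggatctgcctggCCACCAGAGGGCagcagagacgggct
Same strand, chr6:32415605-32415644, its neighbour: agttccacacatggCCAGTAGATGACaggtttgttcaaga
Same strand, chr19:50090916-50090955, intergenic: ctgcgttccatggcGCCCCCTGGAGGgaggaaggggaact
Same strand, chr19:50092715-50092754, its neighbour: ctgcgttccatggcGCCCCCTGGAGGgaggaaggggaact

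These pairs were strong at both sites in both libraries. Values below are fold enrichment over the control, as the peak caller gave it. The convergent pair near PPP1R1B, a regulator of protein phosphatase 1, had a fold of 192 at the left site and 132 at the right in replicate 1, and 72.1 and 61.7 in replicate 2, with summits 1504 bp apart. The convergent pair on chromosome 18 had 119.5 and 126 in replicate 1 and 65.4 and 88.3 in replicate 2, over 1159 bp. The left site was the higher in both libraries in the first pair and the right site in the second.

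The divergent pair at FAM225A and FAM225B, long noncoding RNA genes, had 209.5 and 196 in replicate 1 and 65.7 and 96.1 in replicate 2. Its neighbours therefore changed order between the libraries. The summits lay 37 and 57 bp from the start sites of the 2 genes and 1405 bp from each other. The windows printed above are identical in 40 of 40 bases when one is inverted, so this is an inverted repeat, and reads that matched both copies could not be assigned by sequence alone.

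The divergent pair in NR4A1, which encodes a nuclear receptor induced by growth signals, had 204 and 188 in replicate 1 and 132 and 62.5 in replicate 2, over 1952 bp. Its left peak also overlapped an Sp1 peak found with both antibodies. A further divergent pair, whose sequences are not shown, stood at the promoter of NEURL3, an E3 ubiquitin ligase gene, with 203 and 143 in replicate 1 and 118 and 84.3 in replicate 2. Both pairs were stronger at the left site in both libraries.

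The same-strand pair near BTNL2, a butyrophilin-like gene of the major histocompatibility region, had 132 and 223 in replicate 1 and 114 and 97.4 in replicate 2, at 1999 bp. On chromosome 19 the same-strand pair had 121 and 188 in replicate 1 and 78.9 and 92.8 in replicate 2. Its windows were identical in 40 of 40 bases in the same direction, and it is a direct repeat. Equal sequences thus occurred in both a divergent and a same-strand arrangement.

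**Figure D1:**
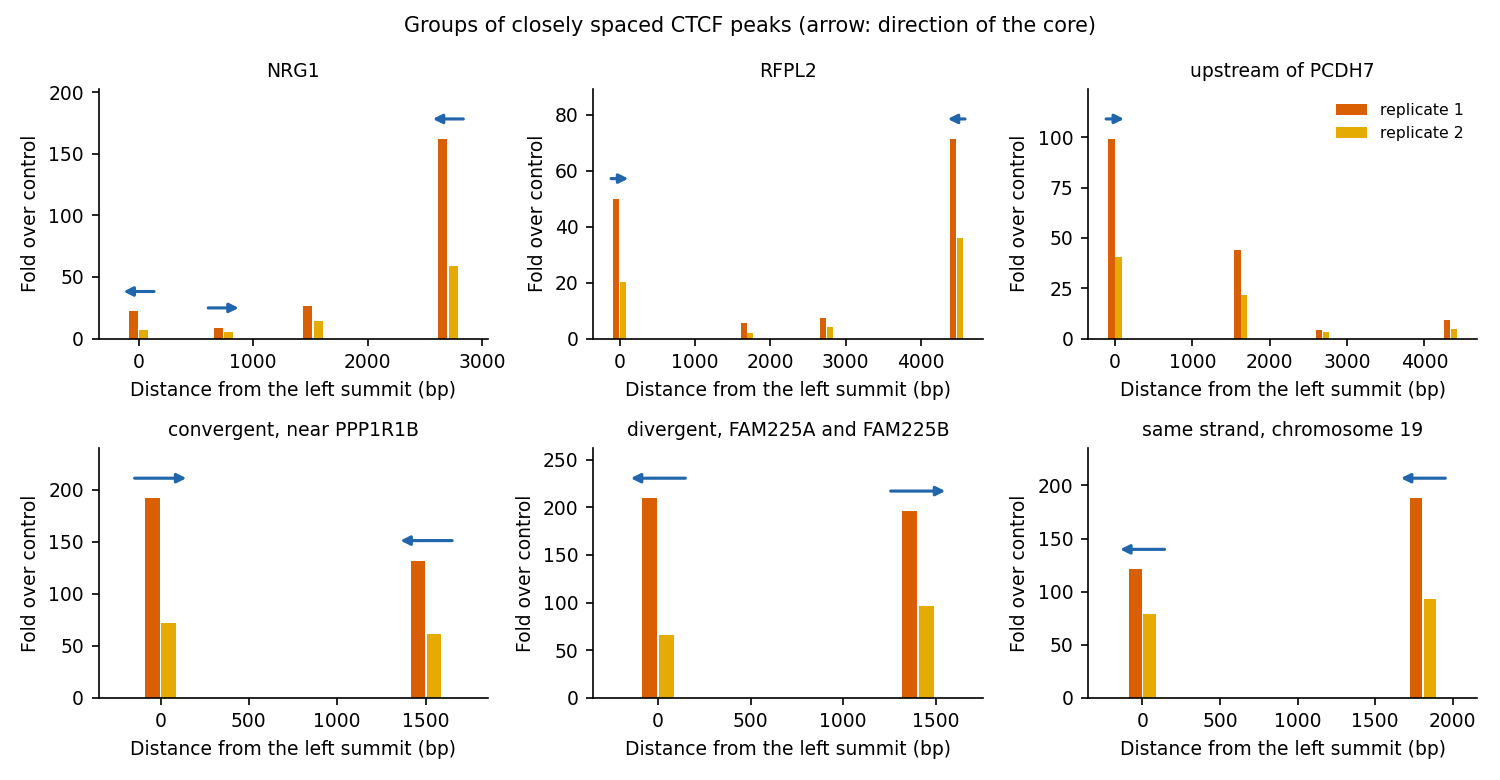
Fold enrichment over the control in 6 groups of closely spaced CTCF peaks, drawn to scale along the distance from the left summit in bp, with 1 bar per CTCF library at each summit and an arrow for the direction of the core where there is one. The 3 upper panels show the groups of 4 peaks and the 3 lower panels show strong pairs of each orientation, where both bars stand above 60 at each summit.

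The closely spaced peaks formed 932 groups, in which each summit lay within 2 kb of the next. Most groups were pairs, 891 of 932 or 95.6%. There were 38 groups of 3 peaks and 3 groups of 4, so that 41 groups, 4.40% (95% Wilson interval 3.26 to 5.91), had at least 3. With all peaks of replicate 1, shared or not, this was 7.71% and the closely spaced share 8.97%, and with all peaks of replicate 2 they were 7.35% and 8.19%. Such intervals describe counting error alone. Peaks of 1 library are no replicates of each other, and no p-value was computed over them. The longest group spanned 4470 bp.

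Within groups there were 976 adjacent pairs of summits. Their spacing ranged from 459 to 1999 bp with a median of 1472 bp, and 80% of them lay between 948 and 1902 bp. Pairs became scarce at short range, with 1 pair up to 500 bp, 125 from 500 to 1000 bp, 392 from 1000 to 1500 bp and 458 from 1500 to 2000 bp. The next 500 bp beyond the 2 kb limit held 477 pairs, and no step was seen there. Since the limit set the upper end, the median spacing describes the choice of members as well as the genome.

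**Figure D2:**
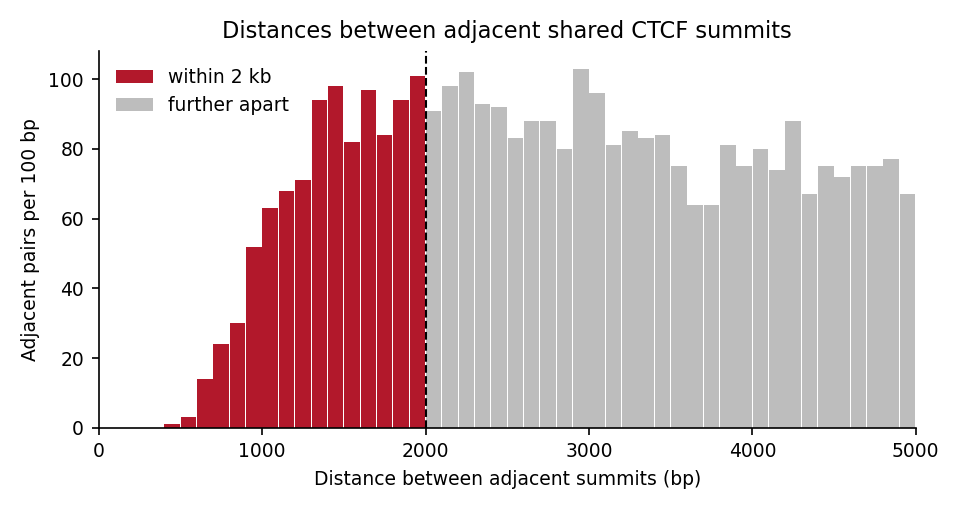
Number of adjacent shared CTCF summits per 100 bp of distance between them, up to 5000 bp, with pairs within 2 kb in red and the limit as a dashed line. Counts fall towards 0 below 1000 bp and pass the limit without a step.

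The lists could not resolve sites that lie closer together. No intervals within a library were nearer than 196 bp in replicate 1 or 188 bp in replicate 2, and the narrowest peaks were 195 and 187 bp wide. These values are gaps between interval edges and peak widths, and summits lay further apart. The shortest distance between adjacent shared summits was 459 bp in replicate 1 and 374 bp with replicate 2 peaks and summits. Sites closer than the lists can separate appear as 1 peak. Of the 976 pairs, 960 met separate replicate 2 peaks and 16 fell on a single one. Over the 960, the spacing in replicate 2 had a median of 1478 bp and differed from that in replicate 1 by a median of 14 bp, with 932 pairs, 97.1%, within 100 bp. Positions thus carried over between libraries for nearly every one of these pairs. Each site had to overlap a replicate 2 peak to be chosen, so part of this follows from the choice.

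Replicate 2 had narrower peaks, with a median width of 497 bp against 599 bp in replicate 1. When its peaks and summits were used in place of those of replicate 1, 2494 of 34231 shared peaks, 7.29%, were closely spaced, in 1286 adjacent pairs with a median spacing of 1363 bp. Of these pairs, 310 (24.1%) lay inside 1 wide replicate 1 peak, with a median spacing of 867 bp. The count of close neighbours therefore moved with the library whose intervals were used. At least 2 replicate 2 peaks overlapped 23 of the 1908 closely spaced peaks (1.21%) and 0.880% of isolated peaks.

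The closest pair stood at the start of DNMBP, which encodes a scaffold protein of the cell cortex, with summits 459 bp apart and folds of 24.3 and 42.0 in replicate 1 and 9.54 and 13.4 in replicate 2. The 2 next closest, at ZNF19 and TAT-AS1 and in the region of LINC01854, both had summits 510 bp apart. In each of them both sites fell on 1 replicate 2 peak, with a fold of 7.09 at ZNF19 and TAT-AS1 and of 5.14 near LINC01854. Only the DNMBP pair was therefore resolved in both libraries.

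At the limit itself, 1 pair just inside lay near NUF2, a kinetochore gene, with summits at chr1:163359333 and chr1:163361332, 1999 bp apart. Its folds were 46.0 and 31.1 in replicate 1 and 26.7 and 19.4 in replicate 2. The pair just outside lay at 2001 bp near HNF4A-AS1, with 76.2 and 134 in replicate 1 and 39.6 and 60.0 in replicate 2. These values are given as a description of the limit.

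Closely spaced peaks had somewhat lower fold enrichment than isolated ones. In replicate 1 they ranged from 1.21 to 296 with a median of 33.6, against a median of 42.2 for isolated peaks, a difference in log2 medians of -0.33. In replicate 2 they ranged from 1.52 to 159 with a median of 18.9, against 22, a difference of -0.22. The distributions overlapped over almost their whole range. The closely spaced median was the lower on 18 of 23 chromosomes in replicate 1 and on 17 in replicate 2. With all peaks of replicate 1, without the need for replicate 2, the difference was -0.63.

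The difference sat among the weakest shared peaks and depended on distance. When the shared peaks were ranked by fold in replicate 1 and cut into 4 classes of 8484, closely spaced peaks made up 5.33%, 4.83% and 5.26% of the 3 stronger classes and 7.07% (6.55 to 7.64) of the weakest, and in replicate 2 the weakest class held 6.92%. The 251 peaks with a neighbour within 1 kb had a median fold of 14.4 in replicate 1 and 8.15 in replicate 2. The 1657 peaks whose nearest neighbour was 1 to 2 kb away had 40.2 and 21.4. Peaks with a neighbour at 2 to 5 kb were the strongest of all distance classes in replicate 1, at 49.3, and those at 5 to 10 kb in replicate 2, at 25.5. When the limit was set at 5 kb, the sign of the difference in log2 medians accordingly turned, to 0.13.

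Neighbours within a pair often differed in level, as more distant neighbours also did. Sorted by mean log2 fold within each pair, the stronger sites had a median of 71.0 in replicate 1 and 35.8 in replicate 2, and the weaker 16.6 and 9.21, a gap that the sorting itself helps to make. The median ratio within a pair was 2.69-fold in replicate 1 and 2.58-fold in replicate 2, and 37.0% of pairs differed by more than 4-fold. Neighbours 2 to 5 kb apart had a ratio of 2.40-fold in replicate 1, and 31.4% differed by more than 4-fold. At 50 to 100 kb the values were 2.48-fold and 31.8%. Across the 960 pairs resolved in both libraries the levels of the neighbours were nearly unrelated in replicate 1, with a Spearman's rho of 0.0282, given as a description across pairs of 1 library.

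The order within a pair was the same in both libraries more often than not. The same neighbour was the stronger in 850 of 960 pairs, 88.5% (86.4 to 90.4), which is close to the 89.2% (87.9 to 90.4) of neighbours 2 to 5 kb apart. Among pairs that differed by more than 4-fold in replicate 1 the order was kept in 355 of 355. Among those with a log2 ratio of at most 0.5 it was kept in 64.4% (57.4 to 70.8). The log2 ratios of the 2 libraries had a Pearson's r of 0.951 over the pairs.

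**Figure D3:**
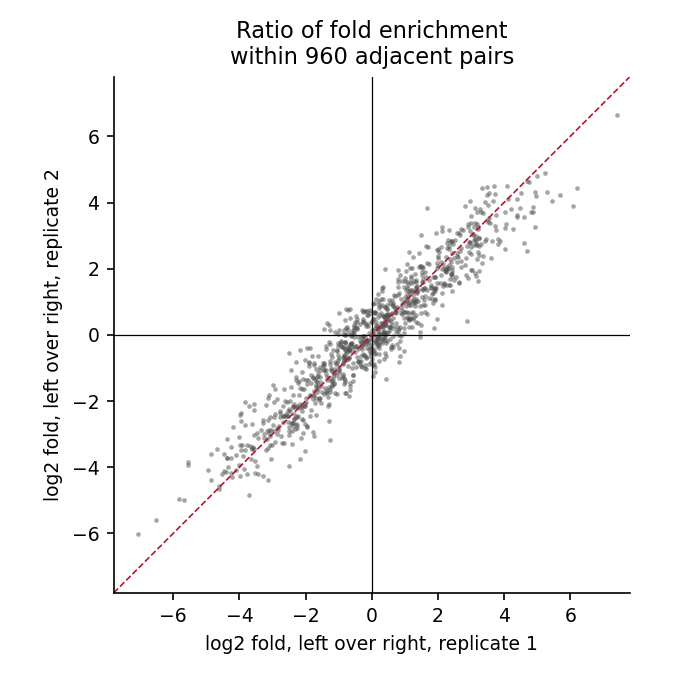
Log2 ratio of the fold at the left summit to that at the right summit in replicate 1 (x axis) and replicate 2 (y axis), with 1 point for each of 960 adjacent pairs that both libraries resolved and equality as a dashed line. In 850 pairs the points lie in the upper right or lower left quadrant, where both libraries had the same stronger neighbour.

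Among groups of exactly 2 peaks, 2 of the 3 most unequal pairs lay at chromosome ends. At the right end of chromosome 1 a peak with folds of 286 and 151 in replicates 1 and 2 had a neighbour 1446 bp away with 1.66 and 1.52. At the left end of chromosome 12, near DDX11L8, a peak with 2.32 and 2.03 neighboured one with 215 and 97.3. The third, upstream of PLLP, which encodes a myelin membrane protein, had 3.52 and 198 in replicate 1 and 2.73 and 85.1 in replicate 2. Within 50 kb of a chromosome end lay 6 closely spaced peaks, 0.314%, and 0.125% of isolated peaks.

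In groups of 3 the middle site was the strongest in 10 of 38. The strongest peak stood at an end in 28 of 38 groups in replicate 1 and in 28 in replicate 2, and an end position is open to 2 of the 3 peaks. Median folds were 16.3 in the middle and 25.3 at the ends in replicate 1, and 9.18 and 13.8 in replicate 2. In an intron of PAMR1, a secreted protease-like gene, the 3 peaks had 178, 2.65 and 23.5 in replicate 1 and 54.8, 3.66 and 13.8 in replicate 2. At SPSB4, which encodes a ubiquitin ligase adaptor, all 3 were weak, with 6.51, 11.5 and 7.54 in replicate 1 and 4.64, 4.67 and 5.76 in replicate 2.

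The 3 groups of 4 lay in introns of RFPL2 and NRG1 and upstream of PCDH7. From left to right the RFPL2 summits lay 39, 772, 187 and 1915 bp from the nearest annotated start site, of RFPL2 or SLC5A4-AS1. Those in NRG1 lay 1687, 946, 164 and 497 bp from one. In an intron of RFPL2, a gene of the ret finger protein-like family, folds from left to right were 50.0, 5.41, 7.48 and 71.3 in replicate 1 and 20.3, 2.11, 4.16 and 35.9 in replicate 2. The outer sites were the strong ones in both libraries and faced each other over the weak inner ones, which held no core. The cores of the outer sites are shown because their windows, read in opposite directions, share 37 of 40 bases. Reads may match both windows, and the part of this in the folds of the outer sites was not tested.
RFPL2 group, site 1, chr22:32202587-32202626: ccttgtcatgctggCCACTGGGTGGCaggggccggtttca
RFPL2 group, site 4, chr22:32207057-32207096: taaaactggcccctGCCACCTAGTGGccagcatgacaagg

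Upstream of PCDH7, a protocadherin gene on chromosome 4, the 4 peaks had folds of 99.2, 43.8, 4.06 and 9.30 in replicate 1 and 40.6, 21.7, 3.03 and 4.84 in replicate 2. The leftmost peak held the only core of the group and was the highest in both libraries.

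In NRG1, which encodes the growth factor neuregulin 1, the 4 peaks also stood in introns close to start sites inside the gene. Their folds were 22, 8.68, 26.6 and 162 in replicate 1 and 6.67, 5.05, 14.6 and 58.9 in replicate 2. The rightmost was the highest in both libraries, and 3 of the 4 held a core. With another group, NRG1 had 6 closely spaced peaks among its 8 shared peaks.

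The CTCF core was found at 960 closely spaced peaks, 50.3% (48.1 to 52.6), and at 57.4% (56.9 to 57.9) of isolated peaks, and 57.0% of all shared peaks held it. Windows of the same length 5 kb away held it in 0.546%. An exact core was present in 14.7% of closely spaced and 19% of isolated peaks. The share with a core was lower among closely spaced peaks on 20 of 23 chromosomes. With a weight matrix of 20 bases built from the isolated peaks with an exact core, 64.3% of closely spaced and 72.3% of isolated peaks had a match. The order of the groups was the same under the 3 definitions, which are not independent. Exact cores are a part of the first definition, and the matrix was scored on the isolated peaks that it was built from.

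The core went with the level. Closely spaced peaks with an exact core had a median fold of 72.0 in replicate 1, those with 1 mismatch 48.0 and those without 21.3, and the corresponding values in replicate 2 were 38.8, 24.2 and 11.2. Isolated peaks had 68.7, 48.2 and 27.8 in replicate 1. The stronger site of a pair held a core in 57.5% (54.4 to 60.5) of pairs and the weaker in 42.2% (39.2 to 45.3). In the 443 pairs with a core at 1 site only, it lay at the stronger site in 296, or 66.8% (62.3 to 71.0).

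A core was present at both sites of 265 pairs (27.2%), at 1 site of 443 (45.4%) and at neither of 268 (27.5%). Neighbours 2 to 5 kb apart had a core at both sites in 31.3% of pairs. Where both held one, the cores were at least 712 bp apart, with a median of 1536 bp, and their spacing differed from the summit spacing by a median of 13.0 bp. More than 1 core within a single peak was found in 5.24% of closely spaced and 5.40% of isolated peaks.

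Cores of neighbouring sites mostly pointed the same way. Of the 265 pairs, 151 (57.0%, 51.0 to 62.8) had both cores on the same strand, 70 (26.4%, 21.5 to 32) were divergent and 44 (16.6%, 12.6 to 21.6) were convergent. Adjacent shared peaks more than 2 kb apart were on the same strand in 49.3% (48.3 to 50.2), divergent in 25.9% and convergent in 24.9% (24.0 to 25.7). Convergent pairs were thus less frequent at short range, with intervals that do not overlap.

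The convergent share rose in steps with distance. It was 16.6% at 2 to 5 kb, 17.4% at 5 to 10 kb, 18.1% at 10 to 20 kb and 20.8% at 20 to 50 kb. Beyond that it reached 27.5% at 50 to 100 kb, 32.5% at 100 to 200 kb and 39.3% (36.4 to 42.2) above 200 kb. The interval of the closely spaced pairs overlapped those of each class up to 50 kb and lay below those of the classes beyond. The divergent share was 28.1% at 2 to 5 kb and 15.0% above 200 kb. The same-strand share was 55.3% (51.7 to 58.7) at 2 to 5 kb and 53.3% (50.2 to 56.3) at 5 to 10 kb. Both intervals overlapped that of the closely spaced pairs, so the same-strand share did not set these pairs apart from near neighbours. Above 200 kb it was 45.7% (42.8 to 48.6).

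**Figure D4:**
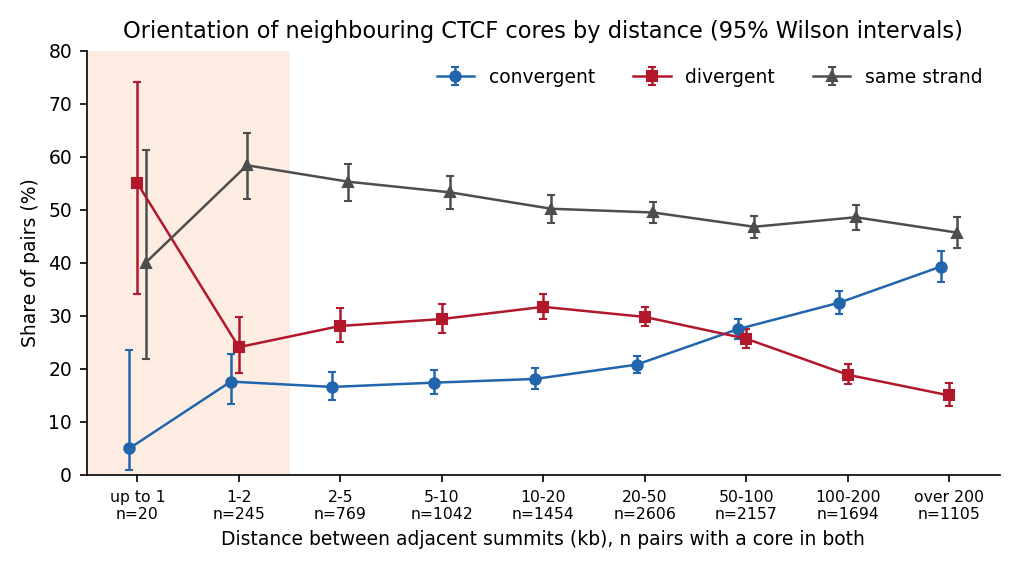
Share of adjacent pairs of shared CTCF peaks with convergent, divergent or same-strand cores (y axis, percent, with 95% Wilson intervals) by the distance between summits in kb (x axis, number of pairs with a core at both sites below each class), with the closely spaced pairs shaded. The convergent share is 17.6% at 1 to 2 kb and 39.3% above 200 kb, and the class up to 1 kb rests on 20 pairs.

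Within 1 kb the split was uncertain. Only 20 pairs had a core at both sites, of which 11 (55.0%, 34.2 to 74.2) were divergent, 8 were on the same strand and 1 (5.00%, 0.888 to 23.6) was convergent. From 1 to 2 kb the 245 pairs were 24.1% divergent, 58.4% on the same strand and 17.6% convergent. With the weight matrix, 16 of 33 pairs within 1 kb (48.5%, 32.5 to 64.8) were divergent and 3 were convergent. With replicate 2 peaks and summits, 52 pairs within 1 kb had a core at both sites, and 34.6% (23.2 to 48.2) were divergent and 15.4% (8.01 to 27.5) convergent. The excess of divergent pairs at this range was smaller there, and the intervals of the 3 estimates overlap.

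At promoters and elsewhere the orientation had overlapping intervals. Of pairs with a site at a promoter and a core at both sites, 18.6% (11.2 to 29.2) were convergent and 28.6% (19.3 to 40.1) divergent, and of the other pairs 15.9% (11.4 to 21.7) and 25.6% (20.0 to 32.2). A promoter site was one whose summit lay at most 1 kb from a start site in the annotation.

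Promoters held 535 closely spaced peaks, 28.0% (26.1 to 30.1), and 20.3% (19.9 to 20.8) of isolated peaks, with 20.8% of all shared peaks as the background. The share was higher among closely spaced peaks on 20 of 23 chromosomes. For start sites of protein-coding genes alone it was 21.2% and 14.4%. Closely spaced peaks lay in introns in 46.5%, between genes in 37.6%, in exons outside coding sequence in 12.5% and in coding exons in 3.41%. The shares of isolated peaks were 50.5% in introns, 37.5% between genes, 9.45% in noncoding exon sequence and 2.61% in coding exons. The intergenic shares were nearly equal.

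Both sites of a pair were at a promoter in 177 pairs (18.1%), 1 site in 199 (20.4%) and neither in 600 (61.5%). Of neighbours 2 to 5 kb apart, both were at a promoter in 7.17%. Sites within 2 kb can share a single start site, and the part of this in the difference was not tested. A protein-coding start site lay between the summits in 168 pairs, 17.2% (15.0 to 19.7), and in 20.3% (18.7 to 21.9) of pairs 2 to 5 kb apart. The sequence around closely spaced summits was richer in G and C, with a median of 53.2% of 201 bp against 49.8%.

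Cores were scarcer at promoters in both sets. Of closely spaced promoter peaks 37.0% held a core, and 55.5% of those elsewhere did. For isolated peaks the values were 45.9% and 60.3%. The share with a core was thus lower among closely spaced peaks within either place. Median folds of closely spaced peaks were 27.5 at promoters and 36.2 elsewhere in replicate 1, and 14.6 and 20.3 in replicate 2. Isolated peaks had 42.2 in both places in replicate 1, and 20.4 at promoters and 22.2 elsewhere in replicate 2.

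Sp1, a zinc finger activator that binds GC-rich promoters, overlapped closely spaced peaks more often than isolated ones. A shared Sp1 peak, found with both antibodies, overlapped 105 closely spaced peaks, 5.50% (4.57 to 6.62), against 2.72% (2.55 to 2.91) of isolated peaks and 2.88% of all shared peaks. At promoters the shares were 13.3% (10.7 to 16.4) and 11.4% (10.6 to 12.2), with overlapping intervals. Elsewhere they were 2.48% (1.78 to 3.44) and 0.517% (0.436 to 0.613). Promoters held 71 of the 105 closely spaced peaks with an Sp1 overlap. Of the 34 closely spaced peaks behind the 2.48%, 12 lay in 1 stretch of chromosome 4 between 49092068 and 49635237, with folds of at most 1.83 in replicate 1, and 10 of these overlapped an IgG peak. Without that stretch the share was 1.62% (1.07 to 2.44). Without peaks that overlapped IgG it was 1.69% (1.13 to 2.52), against 0.424% of isolated peaks, and the overall share of closely spaced peaks was 4.86%. Closely spaced peaks were higher on 13 of 23 chromosomes and lower on 10. The Sp1 libraries came from another line and have 1 library per antibody, so this overlap has no replicate check.

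These features changed most below 1 kb. Of the 251 peaks with a neighbour within 1 kb, 35.1% (29.4 to 41.1) held a core, 45.4% (39.4 to 51.6) were at a promoter and 12.7% (9.18 to 17.4) overlapped a shared Sp1 peak. Of the 1657 with a nearest neighbour at 1 to 2 kb, 52.6% held a core, 25.4% were at a promoter and 4.41% overlapped Sp1. At 2 to 5 kb the values were 55.9%, 21.8% and 3.22%. The class within 1 kb thus stood further from isolated peaks than the class from 1 to 2 kb in each of these features.

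**Figure D5:**
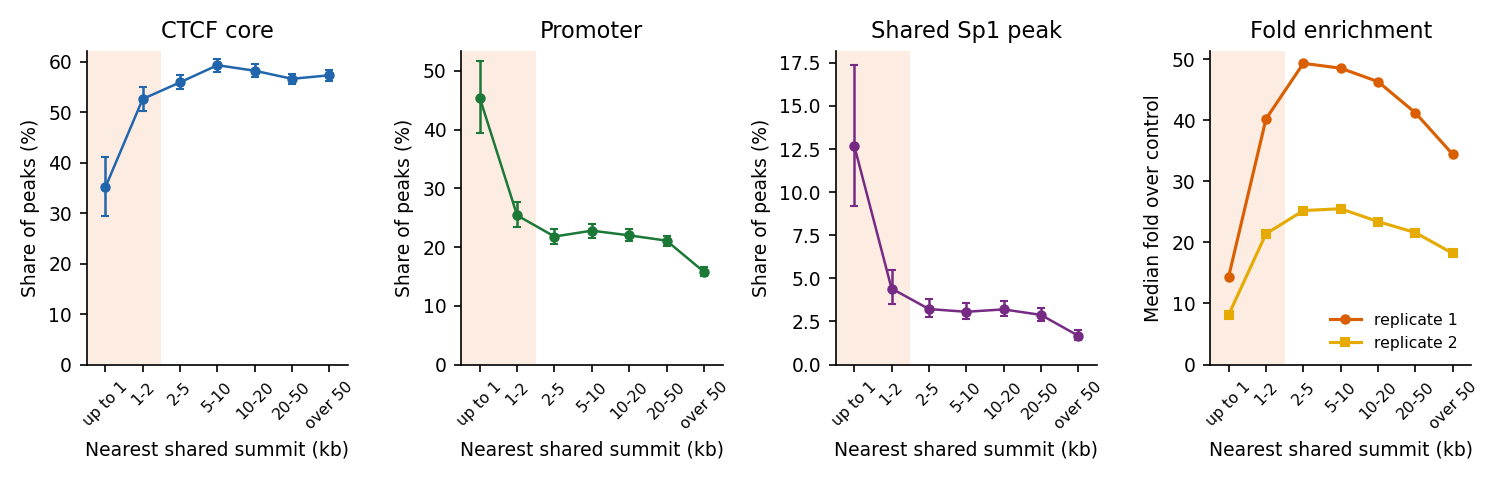
Share of shared CTCF peaks with a CTCF core, at a promoter or overlapping a shared Sp1 peak (percent, 95% Wilson intervals) and median fold enrichment in each CTCF library, by the distance to the nearest shared summit in kb, with closely spaced peaks shaded. Peaks with a neighbour within 1 kb have a core in 35.1%, lie at a promoter in 45.4% and have median folds of 14.4 and 8.15.

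Some neighbours were near-copies of each other. In 24 of 976 pairs (2.46%) the sequences around both summits shared at least 10 words of 12 bases, in the same direction in 21 pairs and inverted in 3, and the share was 2.69% at 2 to 5 kb. Only 6 of the 24 had a core at both sites, 3 divergent and 3 on the same strand. They included sites at DUX4, the gene of the D4Z4 repeat, where the folds were 11.5 and 1.51 in replicate 1 and 5.35 and 1.64 in replicate 2. They also included sites at DANT1, a transcript of the X-linked macrosatellite DXZ4, with 9.85 and 8.68 in replicate 1 and 10.1 and 5.30 in replicate 2. Several of the 24 pairs, all in the same direction, lay in 1 stretch of chromosome 4 between 49092068 and 49635237. Their folds were 1.21 to 1.69 in replicate 1, and each pair had at least 1 peak that overlapped IgG. Whether reads that match several places were kept is not stated, so levels at such pairs are uncertain.

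The IgG control overlapped 11 closely spaced peaks, 0.577%, and 0.0812% of isolated peaks. Of the 11, 10 lay on chromosome 4 between 49092068 and 49635237, with folds from 1.21 to 1.83 in replicate 1. Over the whole set 19 closely spaced and 43 isolated peaks had a fold under 2 in replicate 1. Without the peaks that overlapped IgG the closely spaced share was 5.59% and the difference in log2 medians was -0.32.

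Across chromosomes the closely spaced share ranged from 2.87% on chromosome 13 to 9.09% (7.66 to 10.8) on chromosome 19, where 120 of 1320 shared peaks qualified. The share followed the density of shared peaks per Mb with a Spearman's rho of 0.549 over 23 chromosomes, given as a description since density also sets how often neighbours fall within 2 kb. Peaks found only in replicate 1 lay within 2 kb of 2.88% of closely spaced and 2.53% of isolated peaks.

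A closely spaced peak lay in the body of 511 protein-coding genes, and 391 of these had at least 2. Each such peak has a neighbour within 2 kb by the rule, so the second count largely follows from the choice of members. The body of a protein-coding gene held 473 groups, 50.8%, and 46.0% of closely spaced against 48.3% of isolated peaks. After NRG1 the genes with the most were PTPRN2, a receptor-type tyrosine phosphatase gene, with 6 of its 12 shared peaks, and the unnamed ENSG00000290149 with 5 of 8. In GLDN, which encodes gliomedin of the node of Ranvier, all 4 shared peaks were closely spaced. FXYD2, a regulator of the sodium pump, had 4 of 5. SPTB and SPTBN4, which encode spectrins of the membrane skeleton, had 4 of 8 and 4 of 6. MYO1H had 4 of 6, and PPP2R2C and WDR25 had 4 of 7.

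Of 19962 protein-coding genes, 12204 had a shared peak within 5 kb and 754 of those, 6.18%, had a closely spaced one. The clustered protocadherin genes, whose choice of promoter depends on CTCF sites, had a shared peak at 48 of 53 genes and no closely spaced one. None was found either at the 28 HOX genes with a shared peak, the 12 genes of CTCF, cohesin and their partners, the 19 keratin genes or the 47 olfactory receptor genes. Some of these lists describe known gene clusters, and none was tested against chance.

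Among 19 imprinted genes 14 had a shared peak, and 2 had closely spaced ones. At H19, whose upstream CTCF sites insulate IGF2 on the maternal copy, the pair had folds of 20.3 and 63.7 in replicate 1 and 11.4 and 30.6 in replicate 2, with summits 1459 bp apart. Neither site held the core as defined here. At IGF2, a fetal growth factor gene, the pair had 11.9 and 85.5 in replicate 1 and 5.80 and 46.7 in replicate 2, over 1799 bp. The right site was the stronger of both pairs in both libraries.

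Of 73 replication-dependent histone genes, 24 had a shared peak and 6 a closely spaced one, all in 2 groups on chromosome 1. At H2AC18, H3C14 and H4C14 the folds were 7.80 and 7.12 in replicate 1 and 3.51 and 3.97 in replicate 2. At H2AC19, H3C15 and H4C15 they were 9.64 and 8.33 in replicate 1 and 3.46 and 4.31 in replicate 2. All 4 peaks were weak, lacked a core and overlapped a shared Sp1 peak. These gene sets are near-copies of each other, so their peaks may share reads and the 6 genes are not separate observations.

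Collagen genes, which encode structural proteins of the extracellular matrix, had a shared peak at 38 of 44 genes and a closely spaced one at 5. In COL15A1 the pair had 106 and 32.9 in replicate 1 and 62.5 and 9.97 in replicate 2. At the promoter of COL27A1 it was divergent, with 6.37 and 147 in replicate 1 and 5.05 and 92.9 in replicate 2. In COL22A1 both cores lay on the same strand, with 29.2 and 121 in replicate 1 and 16.0 and 70.9 in replicate 2. The order within each pair was the same in both libraries.

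Of 246 zinc finger genes on chromosome 19, 81 had a shared peak and 4 a closely spaced one. ZNF536, a repressor of neuronal differentiation, held 2 groups. The left had 14.6 and 121 in replicate 1 and 8.83 and 64.3 in replicate 2, and lacked cores. The right was convergent, with 20.8 and 61.6 in replicate 1 and 12.6 and 30.6 in replicate 2. At ZNF439 the pair was on the same strand, with 23.6 and 50.9 in replicate 1 and 10.8 and 36.7 in replicate 2.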

How the data were processed

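ChIP-seq peak lists of 5 libraries were used: 2 for CTCF, 1 for each of 2 Sp1 antibodies and 1 for IgG. The 3 input libraries have no list used here. The submitters' processing notes name cutadapt 2.6, Bowtie2 2.4.5, SAMtools 1.15.1, deepTools 3.5.4, MACS2 2.2.7.1 and bedtools 2.27.1. The authors trimmed reads, aligned them to hg38, removed duplicates and called peaks per library. The deposited fold enrichment is a linear ratio to the control. The −log10 p-value and −log10 q-value deposited with each summit served for alternatives, and the deposited score, derived from −log10 q, was not used. The study's methods give alignment options, with no filter on reads that match several places named, and for a reproducibility step a liberal p-value limit, no local background and merged controls. Whether the deposited lists were called that way is not stated. The lists carry no read depth, and the read numbers of the study were not used here.

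Peaks were read with Python 3.11.15, pandas 2.3.3 and pysam 0.24.0. Start sites and features came from GENCODE 44. Summits are 1-based in the text. Shares carry 95% Wilson intervals (numpy 2.4.6), and Spearman's rho of neighbouring levels came from scipy 1.17.1. The computations were tested on simulated data. Named groups were those with the most members, the strongest pairs of each orientation leaving out chromosome 8 and IgG overlap, the closest and most unequal pairs, pairs at the 2 kb limit, up to 3 groups per gene list, and the genes with the most members. Repeat examples at DUX4, DANT1 and the chromosome 4 stretch were named after their values were seen. Members and lists were chosen with earlier results of these data known. Alternatives changed the neighbour distance, −log10 q minimum, library, core, window, promoter distance and Sp1 list. Those on like sequences, IgG overlap and the chromosome 4 stretch were chosen after seeing the data.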

Additional observations from a re-analysis of the deposited data

How the results depend on the processing

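No paired analysis was possible because no result came from a test, and the numbers of the CTCF replicates recur only in inputs, for which no peak list was used here. Of 86 alternatives, 44 moved a value by less than its tolerance, 41 moved it further and 1 turned its sign. The tolerance was the 95% Wilson interval for shares, and the SD between the CTCF replicates for the fold difference (0.0798) and the spacing (0.354 bp). Each SD rests on 2 values, 1 per library, from the same peaks or pairs. It leaves out the change from choosing peaks anew, so a median spacing of 1477 bp against 1472 bp counted as moved further. With a neighbour distance of 1 kb the closely spaced share was 0.740%, the share of groups of at least 3 peaks 0.800%, the median spacing 884 bp, the difference in log2 median fold -1.55, the share with the same stronger neighbour 85.8%, the core share 35.1%, the convergent and divergent shares 5.00% and 55.0%, the promoter share 45.4% and the Sp1 overlap 12.7%. With 5 kb these were 18.9%, 11.2% and 2808 bp, the fold difference reversed to 0.13, and the core, promoter and Sp1 shares were 54.3%, 23.6% and 3.90%. With replicate 2 peaks the closely spaced share was 7.29%, groups of at least 3 were 5.96%, spacing was 1363 bp, the fold difference -0.17 and the promoter share 30.4%. A −log10 q of at least 3 gave a median spacing of 1477 bp. Peaks with no neighbour within 1 kb had a core share of 57.2%, a promoter share of 20.6% and an Sp1 overlap of 2.81%. Pairs more than 1 kb apart were 24.7% convergent and 25.8% divergent. For peaks with no neighbour within 5 kb the core, promoter and Sp1 shares were 57.6%, 20.1% and 2.64%. With replicate 2 peaks, 20.2% of those with no neighbour within 2 kb were at promoters.

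Leaving out 1 CTCF library, so that every peak of the other counted, gave a closely spaced share of 8.19 to 8.97%, groups of at least 3 of 7.35 to 7.71%, spacing of 1300 to 1349 bp, a fold difference of -0.63 to -0.40, a core share of 41.6 to 45.2%, a promoter share of 28.6 to 35.9%, a convergent share of 16.5 to 17.6%, a divergent share of 23.8 to 26.0% and an Sp1 overlap of 5.70 to 5.93%. The higher values without replicate 2 were 8.97% closely spaced and 35.9% at promoters. Among peaks with no neighbour within 2 kb, leaving out 1 library gave a core share of 51.9 to 55.4%. Their promoter share was 19.9 to 21.1% and their Sp1 overlap 2.52 to 2.91%. Pairs further apart were 23.9 to 24.7% convergent and 26.0% divergent. Ranking by −log10 p kept the stronger neighbour in 92.9%. An exact core gave shares of 14.7% with a core, 12.5% convergent and 33.3% divergent, and the weight matrix 64.3% with a match. Promoter distances of 500 bp and 5 kb gave 19.4% and 54.3%, and protein-coding genes alone 21.2%. Sp1 antibody 1 peaks alone overlapped 9.22%. The causes were not tested. Peak width limits the shortest spacing seen, and the number of pairs with 2 cores limits orientation below 1 kb.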
